A study of Drosophila melanogaster with 4 samples.

Results

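The 34 genes described here encode factors that make PIWI-interacting RNAs (piRNAs) in *Drosophila* gonads or that silence genes with them. They were chosen by name, as known piRNA biogenesis and silencing factors of the germline and the gonadal soma. They are 34 of the 13771 genes to which the counted transcripts could be matched, and 65 of the 29929 matched transcripts belong to them. RNA was isolated from the testes of 5-day-old males of the WT stock, Canton S, and of the *sws1* mutant, which carries a mutant allele of *swiss cheese* (*sws*), the fly ortholog of human *PNPLA6*. Each of the 2 genotypes was sequenced as 2 libraries, which the study's methods describe as biological replicates of pooled testes. Ribosomal RNA was removed with complementary oligonucleotides, so transcripts were not selected by their poly(A) tails. WT and *sws1* are separate stocks and no outcross is given in the sources used here, so the allele and the rest of the stock's genome cannot be told apart.

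In fly gonads, long precursor transcripts from piRNA clusters are exported to perinuclear nuage or, in somatic gonadal cells, to Yb bodies. There and at the outer membrane of mitochondria they are cut, loaded into PIWI proteins, trimmed and methylated at their end. Aub and AGO3 cut transposon and precursor transcripts in turn in the ping-pong cycle, whereas Piwi enters the nucleus and directs transcriptional silencing. In testes the pathway is best known for silencing the X-linked *Stellate* repeats with piRNAs from the Y-linked *Suppressor of Stellate* repeats, and loss of several of these genes leads to *Stellate* crystals in spermatocytes and to poor male fertility. The libraries measure the mRNAs of the pathway's proteins. piRNAs and transposon transcripts were not analysed here.

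The libraries held between 2218335 and 4498060 counts. The mutated gene *sws* had 662 and 500 counts for the WT libraries and 166 and 179 for the *sws1* libraries, a log2 fold change (log2FC, *sws1* against WT) of −1.28 (SE 0.15, edgeR quasi-likelihood test, Benjamini-Hochberg adjusted p = 2.12e-06). As a check of the tissue, the spermatocyte tubulin gene *betaTub85D* stood at 2233 to 3163 CPM (counts per 1000000 of the library size after TMM scaling), and the post-meiotic gene *soti* at 933 to 1212 CPM. Among the genes fixed as markers of other cell types, the summed level of 10 accessory gland genes was 60.6 and 67.7 CPM (WT) against 1337 and 510.0 CPM (*sws1*). The 7 fat body genes summed to 422 and 368 CPM (WT) against 750.2 and 739 CPM (*sws1*), most of it from the lipoprotein gene *apolpp*. Of the 6 tested, 4 were not called, and the other 6 genes without *apolpp* summed to 86.5 and 76.3 CPM against 100.2 and 156 CPM. The cyst cell list stood at 203 and 182 CPM for WT but at 240 and 272 CPM for *sws1*. In each of these lists, no marker was at 0 in all libraries. In a whole testis, fewer cells of a type and less RNA per cell cannot be told apart. Where the accessory gland and fat body RNA came from was not tested.

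A gene was called when its adjusted p was under 0.05 and its absolute log2FC above 0.3. Among 9634 genes tested, 2013 (20.9%) were called, 904 (9.38%) higher and 1109 (11.5%) lower in *sws1*. With upper-quartile scaling in place of TMM this split was 1111 higher and 938 lower. Of the 34 piRNA pathway genes, 32 had enough counts to be tested and 6 were called, a share close to that over all genes. DESeq2 called 2 of the 34, *tud* and *Hen1*, and 994 of the 11419 genes it tested. The mRNAs of the nuage Tudor protein genes *tej* and *tud* and of the Piwi partner gene *arx* were higher. Those of *SoYb*, the piRNA methyltransferase gene *Hen1* and *AGO3* were lower. The median log2FC of the 32 genes was 0.17, against 0.02 over all genes tested. This is about the size of the SD between replicates of the members' median log2 CPM, 0.164. The median log2FC ranged from 0.08 without *sws1* replicate 2 to 0.32 without WT replicate 2, and was 0.10 without WT replicate 1 and 0.06 once a trend with transcript length was removed. The values ran from −1.10 for *SoYb* to 1.29 for *tej*. In 22 of the 32 genes (68.8%) the log2FC was above 0, against 51.9% of all genes tested. Both *sws1* libraries lay above both WT libraries in 13 of the 32 and in 31.3% of all genes tested. They lay below in 4 of the 32 and in 28.9% of all genes. Summed over all 34 genes, WT libraries reached 1233 and 1317 CPM and *sws1* libraries 1332 and 1341 CPM.

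**Figure D1:**
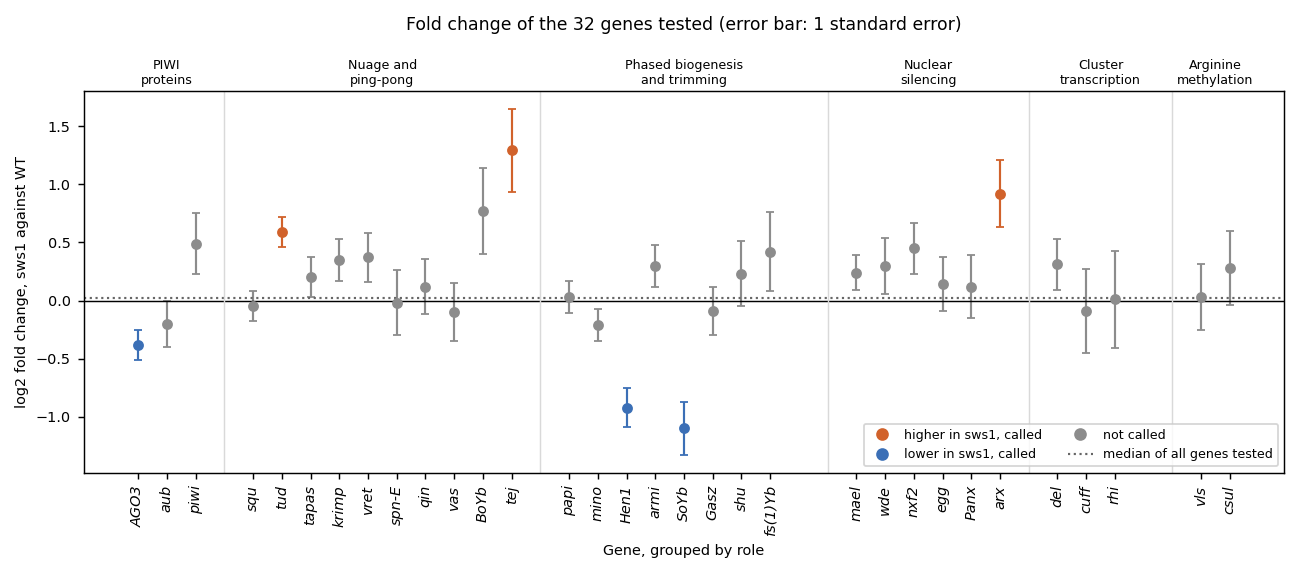
Log2FC (*sws1* against WT) of the 32 tested piRNA pathway genes, grouped by role and ordered by WT level within a role. Points are edgeR estimates and bars are 1 SE, the dotted line is the median of all genes tested (0.02). The 3 genes called higher are *tud*, *tej* and *arx*, the 3 called lower are *AGO3*, *Hen1* and *SoYb*, and 26 genes were not called.

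The members were expressed at very different levels. Per kilobase of exon (CPM per kb), the WT mean ran from 1.53 in *BoYb* to 121 in *squ*, a 78.9-fold range. The most abundant after *squ* were *Hen1* (46.8 CPM per kb), *AGO3* (45.2), *papi* (38.6) and *mael* (32.8). Only 8 of the 32 tested members stood above the median tested gene in WT. The median member stood at percentile 35.1 of the tested genes. *rhi*, *tej*, *zuc*, *moon*, *fs(1)Yb* and *BoYb* were the least abundant, none above 2.87 CPM per kb. Only 9 members had more than 100 counts in every library. The edgeR SEs of the log2FC, used throughout, lay between 0.13 and 0.42. DESeq2 gave larger SEs for *piwi* (0.51 against 0.26), *tej* (0.68 against 0.36) and *SoYb* (0.43 against 0.23).

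**Figure D2:**
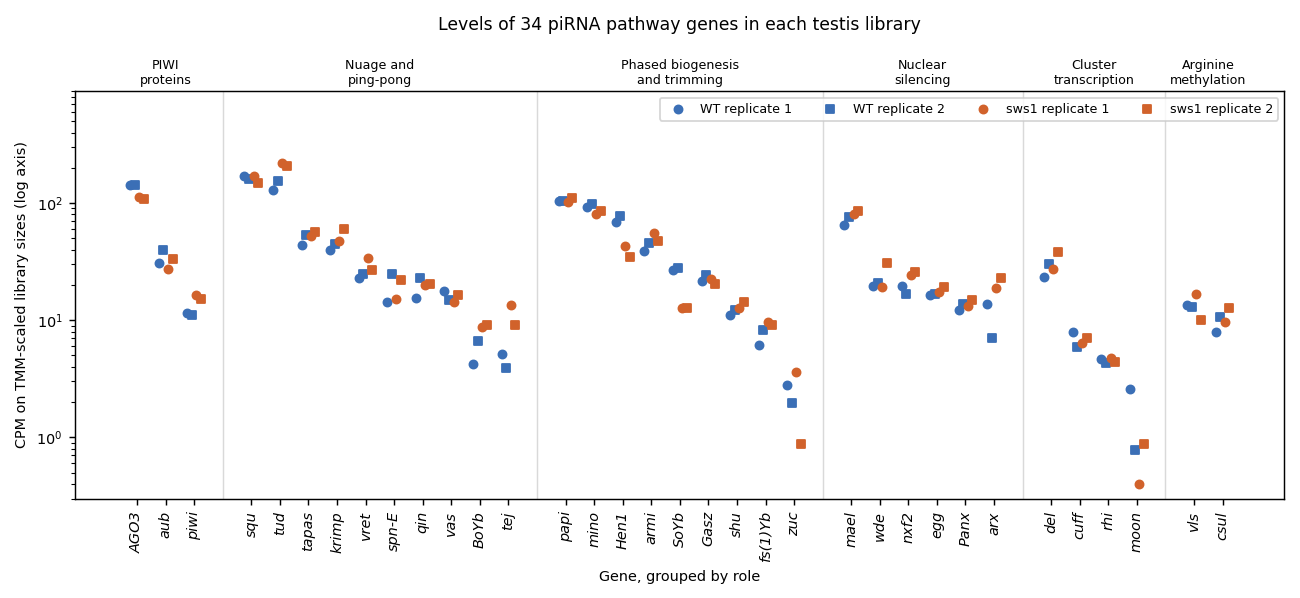
Level of each of the 34 piRNA pathway genes in each library, in CPM on a log axis, grouped by role. Circles are replicate 1 and squares replicate 2, blue for WT and orange for *sws1*. *AGO3*, *Hen1* and *SoYb* lie lower in both *sws1* libraries, and *tud*, *tej* and *arx* lie higher in both.

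Of the 3 PIWI genes only *AGO3* was called. *AGO3*, which carries mostly sense piRNAs in the ping-pong cycle, had 612 and 367 WT counts against 280 and 249 *sws1* counts. Scaled to library size the WT libraries stood at 143.8 and 143.6 CPM, the *sws1* libraries at 111.7 and 108.5 CPM, a mean of 143.7 ± 0.127 against 110.1 ± 2.26 CPM (SD, n = 2). Both *sws1* libraries were thus below both WT libraries, with WT replicates nearly identical. *AGO3* fell by 0.38 on the log2 scale (SE 0.13, edgeR adjusted p = 0.0405), so it stood just inside the threshold. The call was lost when any 1 of the 4 libraries was left out (adjusted p from 0.0957 to 0.143), with upper-quartile scaling (0.0841) and with DESeq2 (0.204), while the log2FC stayed between −0.40 and −0.33 in these fits.

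*aub*, the ping-pong partner of *AGO3*, had 131 and 101 WT counts against 68 and 77 *sws1* counts, which was 30.8, 39.5, 27.1 and 33.6 CPM in that order. The genotypes overlapped, and the log2FC of −0.20 (SE 0.20, edgeR adjusted p = 0.537) had an interval of ±1.96 SE from −0.60 to 0.20. *piwi*, which acts in the nuclei of germline and somatic cells, had 49 and 28 WT counts against 41 and 35 *sws1* counts. That was 11.5 and 11.0 CPM in WT against 16.4 and 15.3 CPM in *sws1*. Both *sws1* libraries were the higher ones, but the log2FC of 0.49 (SE 0.26, edgeR adjusted p = 0.207) did not pass the test, with an interval from −0.03 to 1.0. As a ratio of CPM within each library, *AGO3* to *piwi* was 12.5 and 13.1 in WT and 6.83 and 7.11 in *sws1*. *AGO3* to *aub* was 4.67 and 3.63 in WT and 4.12 and 3.23 in *sws1*, so that ratio overlapped between the genotypes. These ratios were chosen after the values were seen and were not tested.

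Nuage holds the helicases and Tudor domain proteins that bring Aub, AGO3 and their targets together. Of its 10 members, 2 were called higher and 0 lower. That is near the 20.9% called either way over all genes, where 9.38% were called higher. The median log2FC of the 10 was 0.27. At an unadjusted p under 0.05 in edgeR there were 3 in either direction, against 3189 of the 9634 genes tested. DESeq2 called 1, *tud*, against 994 of the 11419 genes it tested. They summed to 465 and 508 CPM for WT but to 595 and 577 CPM for *sws1*. *tud* encodes a large protein of many Tudor domains that binds methylated PIWI proteins, and its 554 and 392 counts in WT compared with 546 and 474 in *sws1*, whose libraries were shallower. On the CPM scale it stood at 130.2 and 153.4 in WT and at 217.9 and 206.6 in *sws1*. The *sws1* libraries were close to each other and above both WT libraries, with a mean of 141.8 ± 16.4 against 212.2 ± 7.96 CPM (SD, n = 2). *tud* rose by 0.59 (SE 0.13, edgeR adjusted p = 0.00182) and was called in each of the 10 other fits to gene counts, DESeq2 and the 4 that left out a library among them.

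*tej* encodes a Tudor protein that draws Vas and Spn-E into nuage. It had 22 and 10 WT counts against 34 and 21 *sws1* counts, or 5.17 and 3.91 CPM against 13.6 and 9.15 CPM. The genotypes did not overlap, and the higher *sws1* library exceeded the lower by more than the WT libraries differed. *tej* had the largest rise of the members, 1.29 (SE 0.36, edgeR adjusted p = 0.0128), with an interval from 0.58 to 1.99. Its adjusted p was 0.0647 without WT replicate 2, 0.174 without *sws1* replicate 1 and 0.318 with DESeq2, with the log2FC then at 1.12, 0.97 and 1.30.

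The other 8 nuage members were not called. *krimp*, a Tudor protein that brings AGO3 and Aub together, had 169 and 115 WT counts against 119 and 138 *sws1* counts, with a log2FC of 0.35 (SE 0.18). *vret*, needed for both nuage and Yb bodies, had a log2FC of 0.37 (SE 0.21). *BoYb*, the germline Yb paralog, had 18, 17, 22 and 21 counts and a log2FC of 0.77 (SE 0.37, adjusted p = 0.148). All of these had both *sws1* libraries above both WT libraries, as did 31.3% of all genes tested. *tapas*, another Tudor protein, stood at 0.20 (SE 0.17), and *qin*, which has RING and Tudor domains, at 0.12 (SE 0.24). The log2FC was −0.02 (SE 0.28) for the helicase gene *spn-E*, −0.10 (SE 0.25) for the germline helicase gene *vas* and −0.05 (SE 0.13) for *squ*. The interval of *squ*, the most abundant member, ran from −0.30 to 0.20, the narrowest of these. That of *vas* ran from −0.58 to 0.38.

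The 9 members of phased biogenesis and end processing act at mitochondria or in Yb bodies. Of the 8 tested, 2 were called, both lower in *sws1*. That is near the 20.9% called either way over all genes, where 11.5% were called lower. The median log2FC of the 8 tested was −0.03. *Hen1* encodes the methyltransferase that modifies the end of mature piRNAs and of siRNAs. Its counts were 295 and 199 in WT and 108 and 79 in *sws1*, which gave 69.3 and 77.9 CPM against 43.1 and 34.4 CPM. The higher *sws1* library was well below the lower WT library, with means of 73.6 ± 6.05 and 38.8 ± 6.12 CPM (SD, n = 2), and the *sws1* level was 0.527 of that in WT. *Hen1* fell by 0.92 (SE 0.17, edgeR adjusted p = 0.000557). It was called in each of the 10 other fits to gene counts, at −1.09 to −0.77 when 1 library was left out and with an adjusted p of 0.0099 with DESeq2.

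*SoYb*, a paralog of Yb with helicase and Tudor domains that acts in germline and somatic cells, had 115 and 71 WT counts against 32 and 29 *sws1* counts. On the CPM scale these were 27.0 and 27.8 in WT and 12.8 and 12.6 in *sws1*. The replicates of each genotype nearly coincided, and the *sws1* level was 0.464 of the WT level. *SoYb* fell by 1.10 (SE 0.23, edgeR adjusted p = 0.00121), the largest fall among the members, and the log2FC lay between −1.13 and −1.10 when 1 library was left out. With DESeq2 the log2FC was −1.12 and the adjusted p 0.0840. Its paralog *BoYb* had a log2FC above 0, and the ratio of *SoYb* to *BoYb* CPM within a library was 6.39 and 4.18 in WT and 1.46 and 1.38 in *sws1*. This ratio was also chosen after the values were seen and was not tested.

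The other genes of this role were not called. *armi*, the helicase that passes precursors to mitochondria, had a log2FC of 0.30 (SE 0.18), with 165 and 116 WT counts against 140 and 108 *sws1* counts. The Yb body core gene *fs(1)Yb*, which works in somatic cells, stood at 0.42 (SE 0.34) on 21 to 26 counts a library. The cochaperone gene *shu*, needed for loading of PIWI proteins, stood at 0.23 (SE 0.28). Both *sws1* libraries were above both WT libraries in these 3 genes, as in 31.3% of all genes tested. Among the mitochondrial proteins, the log2FC was 0.03 (SE 0.14) for the Tudor protein gene *papi*, −0.09 (SE 0.21) for *Gasz* and −0.21 (SE 0.14) for the acyltransferase gene *mino*. *mino* had both *sws1* libraries below both WT libraries, as did 28.9% of all genes tested. The endonuclease gene *zuc* had 12 and 5 WT counts against 9 and 2 *sws1* counts, too few for the test.

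The 6 genes of nuclear silencing act with Piwi at the chromatin of its targets. All 6 had a log2FC above 0, with a median of 0.27. Of these, 1 was called, against 20.9% of all genes: *arx*, whose small zinc finger protein (Asterix) binds Piwi. *arx* had 59 and 18 WT counts against 47 and 53 *sws1* counts, or 13.9 and 7.05 CPM against 18.8 and 23.1 CPM. The WT libraries differed about as much from each other as the higher one did from the *sws1* libraries, although the genotypes did not overlap. *arx* rose by 0.92 (SE 0.29, edgeR adjusted p = 0.0256). This value leaned on the WT libraries: it was 0.57 (adjusted p = 0.194) without WT replicate 2 and 1.56 (adjusted p = 0.00113) without WT replicate 1. The call was also lost without *sws1* replicate 2 (0.0907) and with DESeq2 (0.329).

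*nxf2* and *Panx*, whose proteins form the complex that links Piwi to silencing, had a log2FC of 0.45 (SE 0.22) and 0.12 (SE 0.27). *mael*, which acts downstream of Piwi, had 278 and 194 WT counts against 203 and 195 *sws1* counts, with a log2FC of 0.24 (SE 0.15). The histone methyltransferase gene *egg* and its cofactor gene *wde* stood at 0.14 (SE 0.23) and 0.30 (SE 0.24). In *nxf2*, *mael* and *egg* both *sws1* libraries were above both WT libraries, as in 31.3% of all genes tested. None of these 5 genes was called.

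Rhi, Del, Cuff and Moon allow transcription of germline clusters that lack an ordinary promoter. The log2FC was 0.01 (SE 0.42) for *rhi*, 0.31 (SE 0.22) for *del* and −0.09 (SE 0.36) for *cuff*, and the genotypes overlapped in all 3. *rhi* had 10 to 20 counts a library and an interval from −0.82 to 0.84, so differences of that size may have gone undetected at this depth. *moon* had 11 and 2 WT counts against 1 and 2 *sws1* counts and was not tested. *csul* and *vls* encode the arginine methyltransferase and its cofactor that give PIWI proteins the marks bound by Tudor domains. Their log2FC was 0.28 (SE 0.32) and 0.03 (SE 0.28), and the genotypes overlapped in both.

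**Figure D3:**
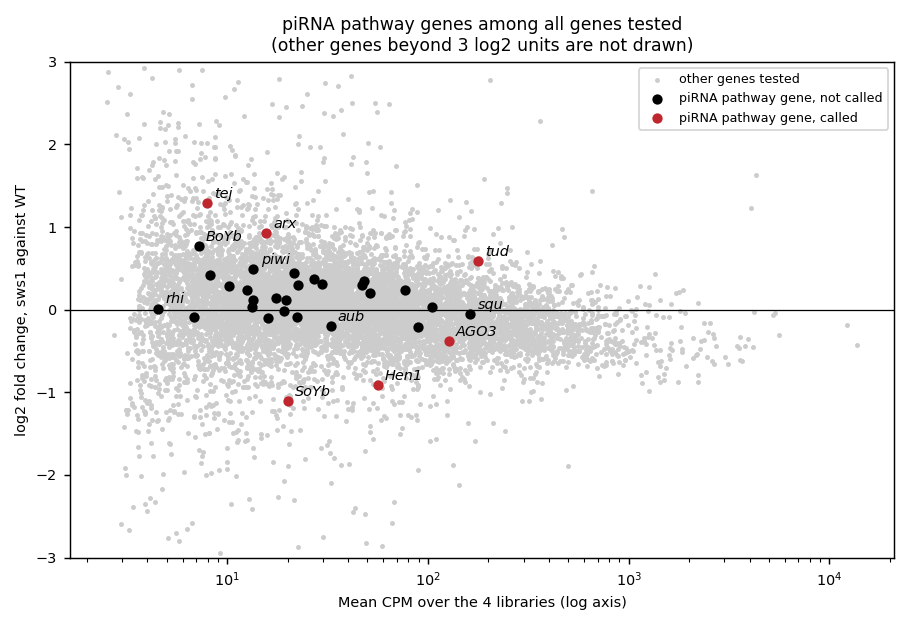
Log2FC against the mean CPM of the 4 libraries (log axis) for all genes tested (grey), the piRNA pathway genes not called (black) and those called (red). The called members lie at very different levels, from *tej* at the left to *tud* at the right, and the other members lie within the body of the grey points.

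The values of the cell type lists stand beside these results as follows. The 8 early germline markers summed to 165 and 208 CPM (WT) against 150.0 and 173 CPM (*sws1*), which overlap. Their median log2FC was 0.09, and of the 5 tested only *bgcn*, a partner of Bam in germline differentiation, was called, lower (log2FC −0.85). Of 15 spermatocyte markers, 4 were called lower, 1 higher and 10 not, with a median of −0.04. They summed to 5359 and 5535 CPM (WT) against 4399 and 4607 CPM (*sws1*), but without *betaTub85D* to 2254 and 2372 CPM against 2002 and 2373 CPM, which overlap. Of 13 post-meiotic markers, 4 were called lower and 9 not, with a median of −0.27 and 4 above 0. They summed to 3895 and 3765 CPM (WT) against 3132 and 3365 CPM (*sws1*), and without *soti* to 2683 and 2711 CPM against 2198 and 2413 CPM. Both *sws1* libraries lay below both WT libraries in 9 of the 13, against 28.9% of all genes tested, and above in 1. Of 8 cyst cell markers, 2 were called higher and 6 not, with a median of 0.24 and 3 below 0. The 3 hub markers summed to 57.8 and 65.4 CPM (WT) against 82.2 and 99.8 CPM (*sws1*). Only *Fas3* of these was called, higher, and the other 2 summed to 21.4 and 18.8 CPM against 19.9 and 21.8 CPM. Of the 9 accessory gland markers tested, 5 were called higher. Over all genes tested, 9.38% were called higher and 11.5% lower. The part of these cell types in the piRNA pathway results was not tested. The 9 ovary genes summed to 45.1 and 42.3 CPM (WT) against 30.7 and 40.5 CPM (*sws1*). The eggshell gene *Cp15* led them in WT and was called lower (log2FC −0.93). The other 8 summed to 27.5 and 26.6 CPM (WT) against 22.7 and 30.95 CPM (*sws1*), which overlap. The oocyte genes *osk* and *bcd* had at most 3.99 and 0.872 CPM.

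Positions were taken from the BDGP 6.54 annotation. By chromosome arm, 13 members are on 2R, 9 on 2L, 6 on 3L, 4 on 3R and 2 on X. *AGO3* spans 3L:23554593-23689640, *arx* 3L:18900595-18901554, *SoYb* 2L:9996706-10002736, *Hen1* 2R:12145710-12152752, *tej* 2R:14300103-14302353 and *tud* 2R:21183322-21192913. Exonic bases were shared with another protein-coding gene in 18 members, and 16 shared none, among them *tud*, *tej* and *arx*. Since the strand setting of the counting is not given in the sources used here, reads of such shared bases cannot be told apart. The share with a protein-coding gene was over 10% of exonic bases in 4 members. These were *armi* with *CG46463* (99.6%, which had 0 counts in every library), *vas* with *solo* (24.6%), *squ* with *grp* (16.3%) and *mael* with *CG14451* (11.4%). Some smaller shares were with genes of more counts than the member. For example, *aub* shared 79 bases (2.6%) with *TTLL4A*, which had 1740, 1317, 820 and 976 counts. *cuff* shared 36 bases (2.8%) with *ERp60*, which had 797, 659, 679 and 635 counts. Antisense RNA genes overlapped 37.0% of *mino* and 16.0% of *egg* exons. Same-strand transposable elements overlapped 21.6% of *nxf2* exons (TART-A) and 5.2% of those of *AGO3* (INE-1), a called gene. Of the called genes, *SoYb* shared 247 bases (5.0%) with *CG31875* on the same strand. *CG31875* had 208, 113, 140 and 129 counts and a log2FC of 0.26, opposite in sign to *SoYb*, and was not called. *mino* contains *nenya* on the opposite strand with no shared exonic base. *nenya* had 1 and 1 WT counts against 76 and 47 *sws1* counts (edgeR adjusted p = 7.01e-09), while *mino* itself had a log2FC of −0.21.

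The counts were deposited per transcript, and 16 of the 34 members had more than 1 annotated transcript. How reads that fit several transcripts were divided is not given in the sources used here. The clearest case, picked after its values were seen, was *SoYb*. Its transcript FBtr0303882 had 115 and 71 WT counts against 0 and 0 *sws1* counts. FBtr0308122 had 0 and 0 in WT and 32 and 29 in *sws1*. All counts of the gene thus sat on 1 transcript in WT and on the other in *sws1*. By the annotation both have the same coding length, 4428 bases, and differ only in exon 1. It is 61 bases long (2L:10002676-10002736) in FBtr0303882 and 13 bases long (2L:10002724-10002736) in FBtr0308122. The shorter exon 1 lies within the longer, so FBtr0308122 has no exonic base of its own, though exon 1 joins the next exon from a different base in each. Nearly all exonic bases are shared, and the part of read assignment in the split was not tested. Use of the transcripts in each genotype was not tested. edgeR on transcripts called neither (adjusted p = 0.0994 and 0.124), whereas DESeq2 called both (5.96e-06 and 0.00138).

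A swap of assigned counts, in which the top transcript of each genotype was at 0 in the other, was seen in 1 of the 16 members. It was seen in 20 of 4461 multi-transcript genes (0.448%) for which each library held 20 counts or more. Top transcripts also changed between replicates of 1 genotype, in 2 of the 16 members between the WT libraries and in 3 of the 16 between the *sws1* libraries, against 867 and 912 of the 4461 genes (19.4% and 20.4%). In *AGO3*, FBtr0299880 had 393, 245, 271 and 0 counts and FBtr0299882 185, 86, 0 and 200, so the counts of the *sws1* replicates were assigned to different transcripts. In *vas*, *sws1* replicate 2 alone had all of its 38 counts on FBtr0445186. In *wde*, WT replicate 2 alone had all of its 53 counts on FBtr0339467. *csul* had 0 and 0 counts of FBtr0089871 in WT and 11 and 7 in *sws1*. With transcripts as the unit, edgeR called 0 of the 46 member transcripts tested, with 5 at an unadjusted p under 0.05, and DESeq2 called 4 of 49: both of *SoYb*, the transcript of *Hen1* and that of *tud*. Over all transcripts tested, edgeR called 0 of 14158, with 2414 at an unadjusted p under 0.05, and DESeq2 called 1488 of 15774.

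**Figure D4:**
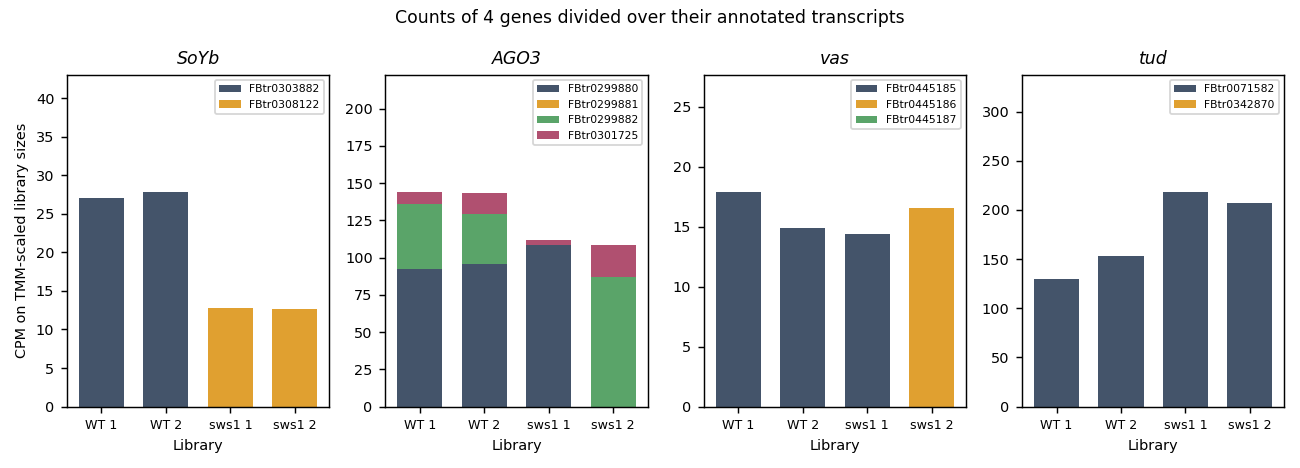
Level of each annotated transcript of *SoYb*, *AGO3*, *vas* and *tud* in each library, stacked, in CPM. *SoYb* counts lie on FBtr0303882 in both WT libraries and on FBtr0308122 in both *sws1* libraries, whereas in *AGO3* and *vas* the *sws1* replicates differ from each other and in *tud* all counts lie on FBtr0071582.

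Other genes that take part in piRNA production, export or silencing were examined as a second list, of which 40 were found and 38 tested. In this list 4 genes were called higher and 1 lower, so 5 of 38 against 20.9% of all genes, and the median log2FC was 0.22. The largest rise was that of *tj*, the somatic transcription factor that drives *piwi* in gonadal somatic cells and also marks cyst cells. *tj* had 25 and 10 WT counts against 31 and 45 *sws1* counts, with both *sws1* libraries higher on the CPM scale (log2FC 1.64, SE 0.34, edgeR adjusted p = 0.00136). The others called higher were *Nup358*, a nuclear pore gene (0.49, adjusted p = 0.0241), *Hpr1*, of the THO export complex (0.52, adjusted p = 0.0482), and the transcription factor gene *Trf2* (0.34, adjusted p = 0.0421). The SUMO ligase gene *Su(var)2-10*, which links Piwi to chromatin, was lower (−0.50, adjusted p = 0.0164). DESeq2 called 0 of 40, with 5 at an unadjusted p under 0.05. Of the 11419 genes DESeq2 tested, 994 were called and 1941 had an unadjusted p under 0.05.

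Of 11 genes of the miRNA and siRNA machinery, 1 was called, also against 20.9% of all genes. *AGO2*, the Argonaute of siRNAs, had 287 and 221 WT counts against 288 and 289 *sws1* counts, and on the CPM scale both *sws1* libraries were above both WT libraries. It was higher by a log2FC of 0.66 (SE 0.15, edgeR adjusted p = 0.00317), and the median of the list was 0.24. *Hen1*, which also methylates the siRNAs that AGO2 carries, was among the genes that fell. The call of *AGO2* was lost without WT replicate 1.

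The *Stellate* repeats, a main target of testis piRNAs, were represented by 12 copies, 7 of them with counts. Their summed counts were 11 and 9 in WT and 5 and 5 in *sws1*, or 2.59 and 3.52 CPM against 2.0 and 2.18 CPM. The counts were few in all 4 libraries, and no *sws1* library had the higher value. The copies are nearly identical, reads that fit several may not have been counted, and none had enough counts for the test, so no level of the repeats is read from this.

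**Figure D5:**
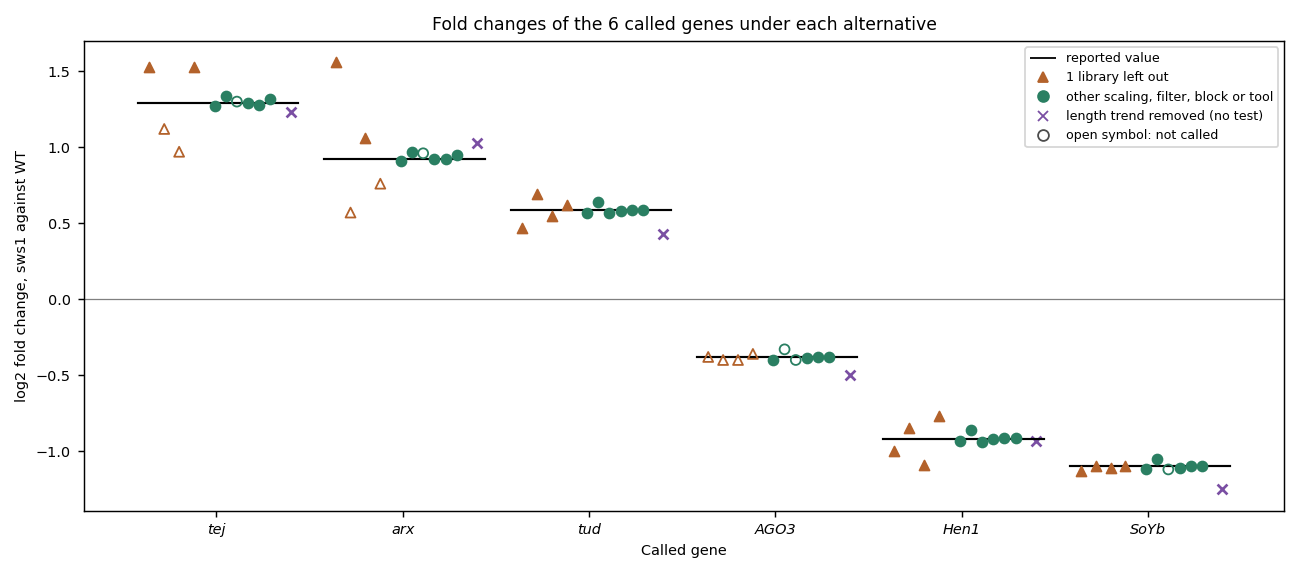
Log2FC of the 6 called members in each alternative fit. Black lines are the reported values, triangles leave out 1 library, circles change the scaling, filter, block or tool, crosses remove the trend with transcript length, and open symbols were not called. *tud* and *Hen1* have only filled symbols, *SoYb* has 1 open symbol (DESeq2), and all 4 triangles of *AGO3* are open.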

How the data were processed

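After trimming (Trimmomatic) and mapping (HISAT2), the authors counted reads per transcript with HTSeq, and the deposited values are these whole-number counts, not normalized. CPM are counts per 1000000 of the scaled library size. The reference release and strand setting are not given in the sources used here. Transcripts were matched to BDGP 6.54 (Ensembl 115) by FlyBase identifier, 10 of 29939 did not match, and counts were summed per gene. In R 4.3.3, edgeR 4.0.16 (filterByExpr, TMM, robust quasi-likelihood test, genotype as the only term) was fitted to all 4 libraries, and p-values were adjusted over all 9634 genes tested. SE is |log2FC| over the root of the F statistic. Intervals are ±1.96 SE, a normal multiplier that does not allow for the few libraries. Alternatives were DESeq2 1.42.0, other size factors and filters, a replicate block, each library left out in turn, transcripts as the unit, and removal of a length trend. Replicates differed beyond sampling noise (chi-square per degree of freedom 3.24 in WT and 3.80 in *sws1*). Every member may be named, and library values are given for called members and PIWI genes. Of the other lists, up to 8 called genes are named. Members and lists were chosen with earlier results of these data known.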

Additional observations from a re-analysis of the deposited data

How the results depend on the processing

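Limits. With 2 libraries per genotype, p-values rest on a spread shared across genes. The call of *AGO3* sat at the threshold, and those of *tej* and *arx* rested on 10 to 59 counts a library. DESeq2 called 994 genes (363 higher and 631 lower) and 2 members, *tud* and *Hen1*, and 0 genes of the second piRNA list. DESeq2's size factors inside edgeR left 3 calls in that list. With transcripts as the unit edgeR called 0 of 14158 transcripts, with 2414 at an unadjusted p under 0.05, and so 0 in each list, while DESeq2 called 1488 of 15774, among them 4 of the members. Leaving out 1 library gave 1394 to 1905 called genes, 3 to 5 called members (3 without WT replicate 2), 2 to 4 calls in the second piRNA list, 0 to 2 in the miRNA and siRNA list (0 without WT replicate 1) and −0.76 to −0.31 for the log2 ratio of the *Stellate* sum, whose reported value was −0.55. Over the 32 tested members, 292 values from fits with a test kept sign and side of the threshold, 13 lost the call and 15 changed sign. Removing the length trend, which has no test, kept the sign in 28 members and changed it in 4. No called gene changed sign. The cause of these changes was not tested. The sign changed for *spn-E* with upper-quartile factors (0.03), for *rhi* with DESeq2's size factors (−0.0014) and, with the length trend removed, for *qin* (−0.03), *papi* (−0.05), *squ* (0.01) and *rhi* (−0.0047). With 1 library left out the range crossed 0 for *vas* (−0.22 to 0.05), *spn-E* (−0.40 to 0.36), *qin* (−0.17 to 0.37), *papi* (−0.03 to 0.09), *squ* (−0.16 to 0.05), *wde* (−0.08 to 0.62), *rhi* (−0.05 to 0.09), *cuff* (−0.27 to 0.18) and *vls* (−0.39 to 0.34). The median of the members stayed between 0.06 and 0.32. Alternatives for *sws* and the called genes of the other lists were chosen after seeing the data. *sws* was called in 10 of 10 and *tj* in 9 of 10 (lost with DESeq2), *AGO2* in 9, *Nup358* and *Su(var)2-10* in 7, *Trf2* in 5 and *Hpr1* in 4.

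The labels number the replicates alike in both genotypes, but same-numbered libraries did not deviate together (correlation −0.001 over 9634 genes). With the replicate number as a block, 2104 genes were called (952 higher and 1152 lower) and 6 members.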
